A study of Mus musculus with 12 samples.

Results

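The muscarinic receptors of the smooth muscle of the gut and bladder, and the G-protein signalling genes downstream of them, were described here in 12 RNA sequencing libraries of mouse colon and urinary bladder. The set held 10 genes of the 54532 in the deposited tables and was chosen by gene name, with earlier results of these data known. It took in the receptor genes *Chrm2* (M2) and *Chrm3* (M3) and the G-protein alpha subunits *Gnaq*, *Gna11* and *Gnai2*. Also in the set were the phospholipases *Plcb1* and *Plcb4*, and the regulators of G-protein signalling *Rgs2*, *Rgs4* and *Rgs5*. Each gene was read as its TPM (transcript abundance scaled to a fixed total per library, a level per transcript length), summed over the rows that share its gene identifier. *Chrm2* and *Chrm3* had been singled out by the study from these same libraries, so their direction here is not independent evidence. In its own test (DESeq2) the study found *Chrm2* significantly lower in both tissues and *Chrm3* in bladder, but not *Chrm3* in colon. By quantitative PCR it found both receptors significantly lower in isolated colonic muscle, and in whole colon a relative reduction like that in its sequencing. Its Western blots gave several bands, of which the major M2 and M3 bands of expected size were lower in colon of the knockout mice. The test used here is a different one, on TPM.

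All mice were males of 5 to 7 weeks on a mixed background, carried floxed *Yap1* and *Wwtr1* alleles, which encode the transcriptional co-activators YAP and TAZ, and received tamoxifen at 1 mg per mouse per day for 5 days, with tissues taken on day 7 after the first injection. Y/T KO mice also carried the Myh11-CreERT2 transgene, a tamoxifen-activated Cre recombinase under the promoter of smooth muscle myosin heavy chain that sits on the Y chromosome, and Ctrl mice lacked it. Each of the 4 groups (Ctrl colon, Y/T KO colon, Ctrl bladder and Y/T KO bladder) held 3 libraries, 1 from each mouse. The 12 libraries came from 9 mice, since mouse 788 (Ctrl) and mice 783 and 780 (Y/T KO) gave both tissues. The libraries were made from tissue homogenates, so mucosa, nerves, vessels and muscle were measured together, while the Cre is driven in smooth muscle cells, those of vessels included.

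Acetylcholine released from nerves contracts the smooth muscle of the gut and bladder through M2 and M3 receptors. The M3 receptor couples to Gq and G11, which activate phospholipase C beta, so that inositol trisphosphate releases calcium and diacylglycerol activates protein kinase C. The M2 receptor couples to Gi, which lowers cyclic AMP. RGS proteins speed up GTP hydrolysis on the alpha subunits and so end the signal.

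The depth behind the values was between 2.80 and 3.94 aligned gigabases per library, as given by the ratio of the deposited coverage to FPKM. The summed TPM of 6 colon epithelium markers was between 8178 and 10160 in colon and between 201 and 263 in bladder, and that of 5 urothelium markers was between 4335 and 5715 in bladder and between 18.7 and 31.5 in colon, so the libraries matched their tissue labels. All 9 smooth muscle markers examined had negative Y/T KO minus Ctrl differences in both tissues, none past the adjusted threshold, and their summed TPM was between 7592 and 8321 in Ctrl colon, 4972 and 5849 in Y/T KO colon, 35340 and 45980 in Ctrl bladder, and 16900 and 30980 in Y/T KO bladder. *Yap1* TPM ranged from 45.8 to 54.9 in the Ctrl colons, 41.3 to 47.0 in the Y/T KO colons, 98.6 to 110 in the Ctrl bladders and 69.4 to 72.1 in the Y/T KO bladders. *Wwtr1* TPM ranged from 16.9 to 21.5, 17.9 to 22.7, 32.5 to 61.6 and 48.3 to 60.9 in the same groups. The *Wwtr1* ranges thus overlapped in both tissues, and since whole-tissue TPM takes in cells without Cre and any exons that Cre leaves in place, these values do not check the deletion.

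The 250 bases before the annotated start of transcription were searched for the core of the TEAD motif, GGAATG, to which the partners of YAP and TAZ bind, and for the CArG box of serum response factor, both on either strand. RefSeq windows (GRCm38.p6) were held for 9 of the 10 genes, with 10 windows in all. The TEAD core was found in 2 of the 10 windows, those of *Gna11* and of the second start of *Plcb4*, against 12.6% of all 32851 windows of that length, and the CArG box in 0 of 10 against 1.47%. Neither set of letters was in the windows of *Chrm2* or *Chrm3*. The parts of 3 windows that lie before every annotated start of the gene are shown 5′ to 3′ on the strand of the gene, for *Chrm2* and *Rgs2*, whose levels separated the genotypes in both tissues in opposite directions, and for *Gna11*, which holds the match (in capitals, read as the reverse complement of the core) but whose genotype ranges overlapped in both tissues.
Chrm2, chr6:36387834-36387990, plus strand: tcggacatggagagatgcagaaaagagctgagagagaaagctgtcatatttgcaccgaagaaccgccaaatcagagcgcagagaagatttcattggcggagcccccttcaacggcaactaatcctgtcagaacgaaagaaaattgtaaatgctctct
Rgs2, chr1:144004162-144004399, minus strand: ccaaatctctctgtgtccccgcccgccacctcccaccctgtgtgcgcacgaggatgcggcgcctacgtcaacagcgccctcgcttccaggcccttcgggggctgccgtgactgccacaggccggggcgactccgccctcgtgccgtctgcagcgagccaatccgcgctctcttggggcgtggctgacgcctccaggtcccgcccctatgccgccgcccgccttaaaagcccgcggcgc
Gna11, chr10:81545191-81545412, minus strand: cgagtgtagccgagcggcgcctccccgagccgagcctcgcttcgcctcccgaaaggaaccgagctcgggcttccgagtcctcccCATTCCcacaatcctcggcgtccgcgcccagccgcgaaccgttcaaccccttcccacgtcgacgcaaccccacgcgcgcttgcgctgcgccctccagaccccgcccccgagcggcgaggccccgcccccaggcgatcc
The match in *Gna11* begins 166 bases before its RefSeq start (chr10:81545162). A match is a run of letters and not a shown binding site, and the absence of one says nothing about binding elsewhere.

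The first question was whether loss of YAP and TAZ in smooth muscle altered the receptors. *Chrm2* (ENSMUSG00000045613, chr6:36388084-36528414, plus strand) had TPM values of 9.89, 10.7 and 8.14 for the Ctrl colons of mice 788, 786 and 787, against 3.23, 1.40 and 1.34 for the Y/T KO colons of mice 759, 783 and 780. The Ctrl bladders of mice 784, 785 and 788 held 3.95, 12.1 and 3.48 TPM, against 1.79, 1.73 and 1.6 for the Y/T KO bladders of mice 782, 783 and 780. Every Y/T KO library was below every Ctrl library of its tissue. The Ctrl bladder of mouse 785 was about as high as the Ctrl colon libraries, and the Y/T KO colon of mouse 759 was above the other Y/T KO colon libraries.

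In colon the fitted *Chrm2* level in Y/T KO was 0.206 of that in Ctrl (95% interval 0.119 to 0.357), a log2 difference of -2.28 (SE 0.34, n = 3 per group, limma adjusted p = 0.0847 over all genes tested), which missed the threshold of 0.05. In bladder it was 0.322 of Ctrl (0.146 to 0.711), a log2 difference of -1.64 (SE 0.48, limma adjusted p = 0.216). On leaving out single libraries, the colon difference of *Chrm2* ranged from -2.67 to -2.08. It passed without the Y/T KO colon of mouse 759 (log2 difference -2.67, limma adjusted p = 0.00679). The limma adjusted p was highest, at 0.263, without the Ctrl colon of mouse 786. Without the Ctrl bladder of mouse 785 the bladder difference was -1.07 (limma adjusted p = 0.342). The difference between the tissues in the effect of genotype on *Chrm2* was -0.67 (SE 0.63, limma adjusted p = 0.670).

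*Chrm3* (ENSMUSG00000046159, chr13:9875486-10360847, minus strand) had TPM values of 1.89, 3.97 and 1.64 for the Ctrl colons, against 0.585, 1.12 and 0.624 for the Y/T KO colons, with mice in the order above. The Ctrl bladders held 24.9, 19.7 and 15.5 TPM, against 8.87, 6.46 and 7.22 for the Y/T KO bladders. The genotypes again did not overlap in either tissue, and the Ctrl colon of mouse 786 was the highest of the colon libraries. Of the interstitial cell of Cajal markers, that library had 251.8 TPM of *Ano1* against 68.2 to 104.8 TPM in the other colon libraries, while its *Kit*, at 33.8 TPM, lay within their range of 20.3 to 48.4 TPM. Its summed TPM of PDGFRA cell and fibroblast markers, 1330, was also above the 918.5 to 1240 of the other colon libraries. Its *Myh11*, at 452.4 TPM, was the highest in colon, while its smooth muscle marker sum, 7592, was the lowest of the Ctrl colons. The part of any of these cells in the *Chrm3* value was not tested.

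In bladder the fitted *Chrm3* level in Y/T KO was 0.382 of Ctrl (95% interval 0.266 to 0.549), a log2 difference of -1.39 (SE 0.22, limma adjusted p = 0.0838). In colon it was 0.359 of Ctrl (0.190 to 0.676), a log2 difference of -1.48 (SE 0.39, limma adjusted p = 0.358). Without the Ctrl colon of mouse 786 the colon difference was -1.16 (limma adjusted p = 0.597). The effect of genotype on *Chrm3* differed between the tissues by -0.12 (SE 0.46, 95% interval -1.14 to 0.89, limma adjusted p = 0.926), so the interval holds differences of up to about 1 log2 unit in either direction.

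**Figure D1:**
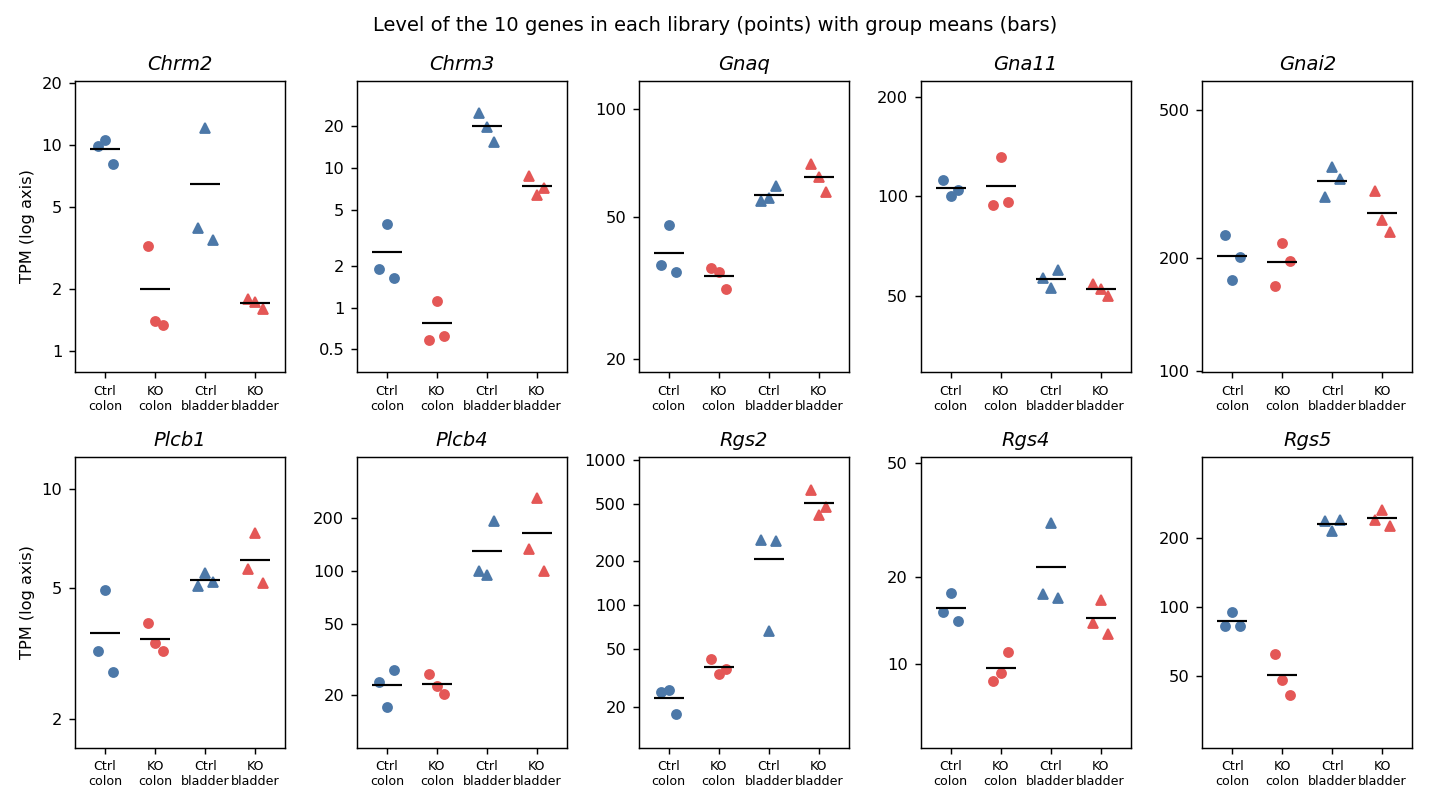
TPM on a log axis for the 10 genes in each of the 12 libraries (circles, colon; triangles, bladder; blue, Ctrl; red, Y/T KO), with bars at the mean of the 3 libraries of a group. *Chrm2* and *Chrm3* sit lower in each Y/T KO group than in its Ctrl group, *Rgs2* sits higher, and the Ctrl bladder library of mouse 785 stands apart for *Chrm2*, *Rgs2* and *Rgs4*.

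Across the set, 0 of the 10 genes passed the adjusted threshold in either tissue, where 0.137% of 17500 genes tested in colon and 0.302% of 18237 tested in bladder did. All 10 passed the filter on low values in both tissues. At an unadjusted limma p under 0.05 there were 4 lower genes (*Chrm2*, *Chrm3*, *Rgs4* and *Rgs5*) and 1 higher gene (*Rgs2*) in colon, against 4.59% lower and 5.14% higher of all genes tested. In bladder there were 3 lower (*Chrm2*, *Chrm3* and *Gnai2*) and 1 higher (*Rgs2*), against 8.2% and 6.64%. The median log2 difference of the 10 genes was -0.09 in colon and -0.01 in bladder, against 0.01 and 0.00 over all genes tested.

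The deposited TPM of the genotypes did not overlap for *Chrm2*, *Chrm3*, *Rgs4* and *Rgs5* (lower) and *Rgs2* (higher) in colon, where 8.28% of genes tested were lower in this way and 7.52% higher. In bladder they did not overlap for *Chrm2*, *Chrm3* and *Rgs4* (lower) and *Rgs2* (higher), against 10% and 10.4% of genes tested. After rescaling the libraries to a common median, *Rgs4* overlapped in bladder, while *Gnaq* in colon and *Gnai2* in bladder separated. In whole tissue, fewer cells that express a gene and less of its RNA per cell cannot be told apart.

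**Figure D2:**
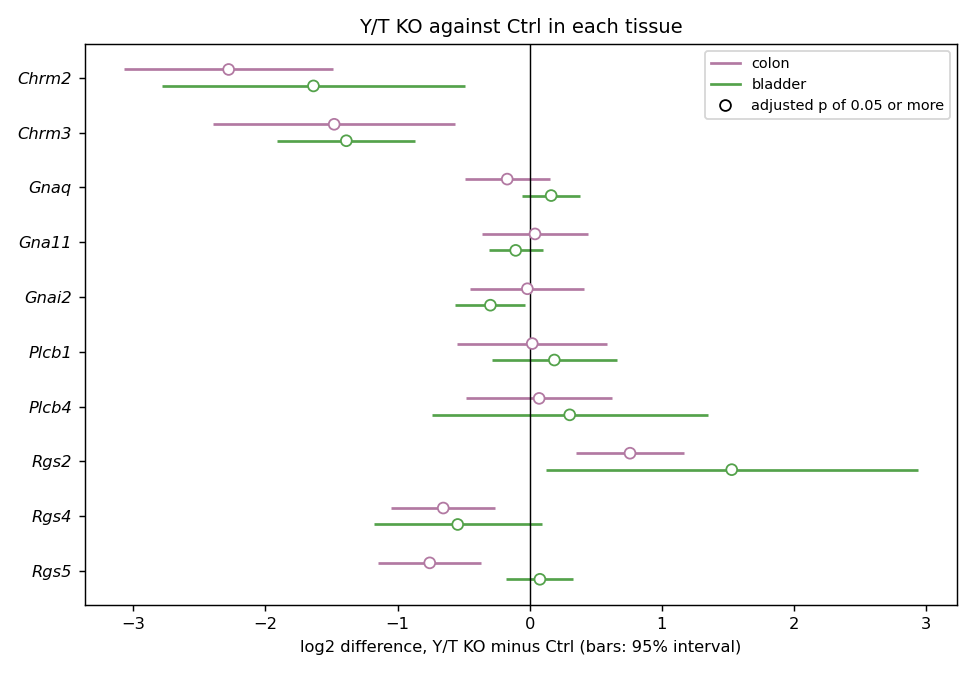
Log2 difference of Y/T KO minus Ctrl for the 10 genes in colon (purple) and bladder (green), as fitted by limma, with bars for the 95% interval. All points are open because no gene reached an adjusted p under 0.05, and the intervals of *Chrm2*, *Chrm3* and *Rgs2* lie on 1 side of 0 in both tissues.

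The balance of the receptors was a matter of tissue. In Ctrl colon the ratio of *Chrm2* to *Chrm3* TPM was 5.25, 2.69 and 4.96, and in Ctrl bladder it was 0.159, 0.614 and 0.225. *Chrm2* thus made up 72.9% to 84.0% of the summed TPM of *Chrm2* and *Chrm3* in Ctrl colon and 13.7% to 38.1% in Ctrl bladder, without overlap. The log2 ratio differed by 3.81 between the tissues of Ctrl mice (SE 0.65, n = 3 per group, two-sided exact permutation p = 0.1, the smallest that 3 against 3 allows).

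In Y/T KO the ratio was 5.52, 1.26 and 2.15 in colon and 0.202, 0.267 and 0.222 in bladder, so that M2 mRNA still exceeded M3 mRNA in each colon library and was below it in each bladder library. The log2 ratio of Y/T KO minus Ctrl was -0.80 in colon (SE 0.65, exact permutation p = 0.3, n = 3 per group) and -0.25 in bladder (SE 0.59, exact permutation p = 0.9, n = 3 per group), and the genotypes overlapped in both. Without the Ctrl bladder of mouse 785 the bladder value turned to 0.31. A shift of the balance with genotype was therefore not larger than the spread between mice.

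**Figure D3:**
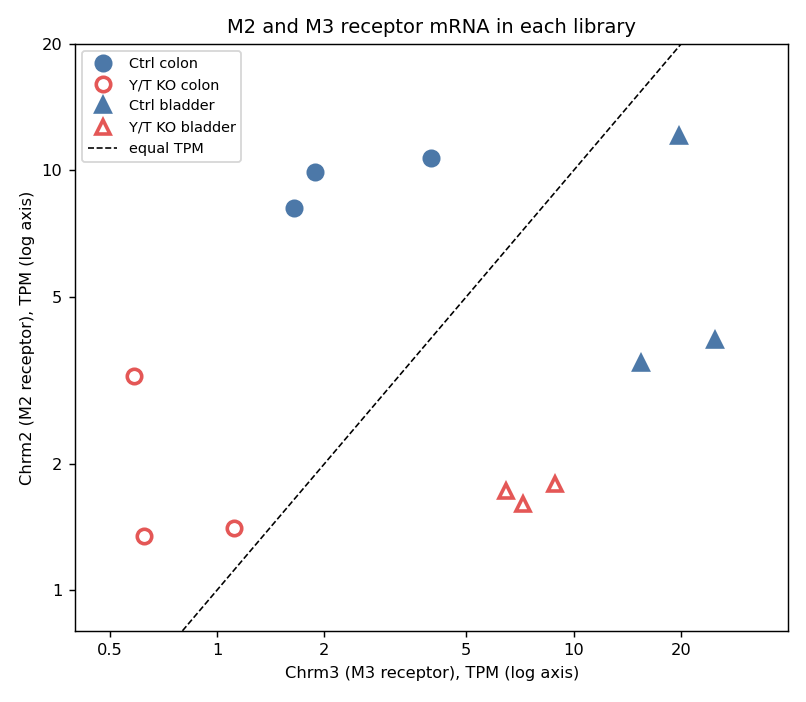
TPM of *Chrm2* against TPM of *Chrm3* in each of the 12 libraries, on log axes, with a dashed line where the receptors are equal (circles, colon; triangles, bladder; filled blue, Ctrl; open red, Y/T KO). All 6 colon libraries lie above the line and all 6 bladder libraries below it, and the Y/T KO libraries of each tissue lie lower and to the left of its Ctrl libraries.

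Both receptors were also set beside single smooth muscle markers, since the marker sums were lower in Y/T KO. *Myh11*, the smooth muscle myosin heavy chain, had a log2 difference of -0.98 in colon and -0.35 in bladder, and *Des*, the muscle intermediate filament desmin, of -0.25 in colon and -1.02 in bladder, so the markers did not move by equal amounts. Relative to *Myh11*, *Chrm2* differed by -1.29 log2 units in colon (SE 0.44) and -1.29 in bladder (SE 0.57), without overlap of the genotypes in either tissue. Relative to *Des*, it differed by -2.02 in colon (SE 0.57, no overlap) and -0.62 in bladder (SE 0.55, overlap).

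For *Chrm3* the values relative to *Myh11* were -0.50 in colon (SE 0.33, overlap) and -1.04 in bladder (SE 0.27, no overlap). Relative to *Des* they were -1.22 in colon (SE 0.58, no overlap) and -0.37 in bladder (SE 0.31, overlap). Each of these receptor differences was negative. Whether the genotypes overlapped depended on the marker in 3 of the 4 cases, the exception being *Chrm2* in colon. Each ratio without overlap had an exact permutation p of 0.1, and 0.2 after Benjamini-Hochberg adjustment over the 28 ratio tests made. These ratios were chosen after the values were seen.

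**Figure D4:**
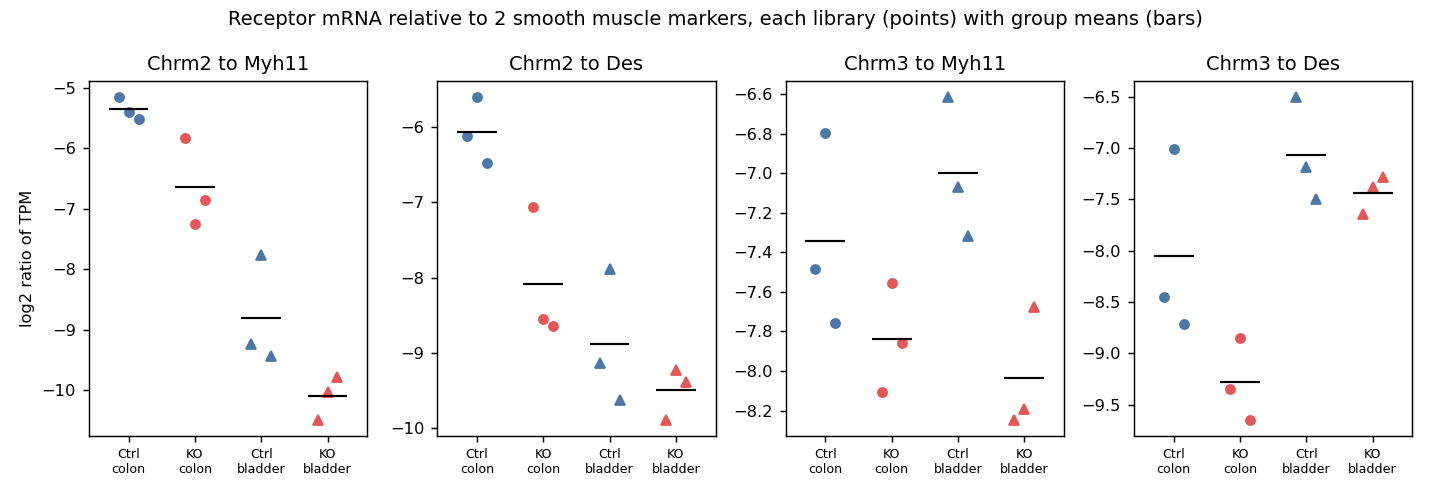
Log2 ratio of *Chrm2* and of *Chrm3* TPM to the TPM of the smooth muscle markers *Myh11* and *Des* in each library (circles, colon; triangles, bladder; blue, Ctrl; red, Y/T KO), with bars at group means. The axes differ between panels and do not start at 0; only *Chrm2* in colon is lower in each Y/T KO library than in every Ctrl library against both markers.

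The G-protein alpha subunits were among the more abundant genes of the set, and none of their genotype differences passed the test. *Gnaq*, the alpha subunit of Gq (ENSMUSG00000024639, chr19:16132831-16387463, plus strand), had TPM values of 36.6, 47.4 and 35.1 for the Ctrl colons, against 36.1, 35.0 and 31.3 for the Y/T KO colons. Bladder values were higher, 55.4, 56.6 and 60.9 TPM for Ctrl mice and 70.4, 64.8 and 58.7 TPM for Y/T KO mice. The genotypes overlapped in both tissues, with log2 differences of -0.17 in colon (95% interval -0.49 to 0.15) and 0.16 in bladder (-0.06 to 0.38).

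*Gna11*, the alpha subunit of G11 (ENSMUSG00000034781, chr10:81528724-81545190, minus strand), had TPM values of 113, 100 and 104 for the Ctrl colons, against 94.3, 131 and 95.9 for the Y/T KO colons. Bladder values were lower, 56.5, 52.9 and 59.8 TPM for Ctrl mice and 54.4, 52.7 and 50.02 TPM for Y/T KO mice. These ranges overlapped, with log2 differences of 0.04 (95% interval -0.36 to 0.44) and -0.11 (-0.31 to 0.10).

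*Gnai2*, the alpha subunit of Gi2 (ENSMUSG00000032562, chr9:107614125-107635367, minus strand), had the highest mean TPM of the set in Ctrl colon, Y/T KO colon and Ctrl bladder. Its TPM values were 231, 174 and 202 for the Ctrl colons, against 169, 220 and 196 for the Y/T KO colons. For bladder they were 292, 351 and 326 with Ctrl mice, against 303, 253 and 235 with Y/T KO mice. The log2 difference was -0.02 in colon (95% interval -0.45 to 0.41) and -0.30 in bladder (-0.56 to -0.03, limma adjusted p = 0.296), and the deposited ranges overlapped in both tissues.

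The TPM ratio of Gq-class to Gi2 mRNA (*Gnaq* plus *Gna11* over *Gnai2*) was 0.645, 0.847 and 0.691 in Ctrl colon and 0.773, 0.757 and 0.648 in Y/T KO colon. For bladder the ratio was 0.384, 0.312 and 0.370 in Ctrl mice, against 0.412, 0.464 and 0.464 in Y/T KO mice. The colon libraries were above the bladder libraries in both genotypes, and the Y/T KO bladder libraries were above the Ctrl bladder libraries. The log2 difference with genotype was 0.33 in bladder (SE 0.11, n = 3 per group, exact permutation p = 0.1, 0.2 after adjustment) and 0.00 in colon (SE 0.14, exact permutation p = 0.9).

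The phospholipases showed the spread of their groups more than a difference between genotypes. *Plcb1* (ENSMUSG00000051177, chr2:134786067-135475258, plus strand), a phospholipase C beta, was among the 3 lowest genes of the set in each group, with TPM from 2.77 to 4.92 in the Ctrl colons, 3.20 to 3.90 in the Y/T KO colons, 5.07 to 5.55 in the Ctrl bladders and 5.16 to 7.35 in the Y/T KO bladders. Its log2 difference was 0.02 in colon (95% interval -0.55 to 0.59) and 0.19 in bladder (-0.29 to 0.66). The sign in colon turned negative with the TPM as deposited.

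*Plcb4* (ENSMUSG00000039943, chr2:135659011-136014593, plus strand), another phospholipase C beta, had TPM values of 23.6, 17.2 and 27.6 for the Ctrl colons, against 26.4, 22.5 and 20.2 for the Y/T KO colons. Bladder values were higher and uneven, 99.9, 94.9 and 192 TPM for Ctrl mice and 133, 259 and 99.5 TPM for Y/T KO mice. The bladder values varied by more than 2-fold within each genotype, the high libraries being those of mouse 788 (Ctrl) and mouse 783 (Y/T KO). The log2 difference was 0.07 in colon (95% interval -0.48 to 0.63) and 0.30 in bladder (-0.74 to 1.35), and without the Y/T KO bladder of mouse 783 it was -0.12.

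Among the RGS genes, *Rgs2* was the only 1 of the 10 genes with higher TPM in every Y/T KO library than in every Ctrl library of its tissue, in both tissues. *Rgs2* (ENSMUSG00000026360, chr1:143999338-144004161, minus strand), which acts mainly on Gq-class subunits, had TPM values of 25.2, 25.9 and 17.8 for the Ctrl colons, against 42.7, 33.6 and 36.6 for the Y/T KO colons. For bladder these were 281, 66.3 and 275 with Ctrl mice, against 618, 420 and 474 with Y/T KO mice. The low Ctrl bladder library was that of mouse 785, the library with the high *Chrm2*.

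The fitted level in Y/T KO was 1.69 of Ctrl in colon (95% interval 1.27 to 2.25, log2 difference 0.76, SE 0.18, limma adjusted p = 0.264) and 2.88 of Ctrl in bladder (1.09 to 7.65, log2 difference 1.53, SE 0.57, limma adjusted p = 0.306). Without the Ctrl bladder of mouse 785 the bladder difference was 0.84 (SE 0.15, limma adjusted p = 0.266). The difference between the tissues in this effect was -0.79 (SE 0.64, limma adjusted p = 0.623), and -0.10 (SE 0.25) without that library.

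*Rgs4* (ENSMUSG00000038530, chr1:169741477-169747642, minus strand), which acts on Gi- and Gq-class subunits, had TPM values of 15.2, 17.5 and 14.1 for the Ctrl colons, against 8.66, 9.28 and 10.9 for the Y/T KO colons. The 3 Ctrl bladders held 17.5, 30.8 and 16.9 TPM, against 13.8, 16.7 and 12.6 for the Y/T KO bladders. The colon genotypes were apart, while in bladder the highest Y/T KO value lay just under the lowest Ctrl value. The fitted level in Y/T KO colon was 0.636 of Ctrl (95% interval 0.484 to 0.834, log2 difference -0.65, SE 0.17, limma adjusted p = 0.332), and the bladder log2 difference was -0.54 (SE 0.27, limma adjusted p = 0.392), or -0.26 without the Ctrl bladder of mouse 785.

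*Rgs5* (ENSMUSG00000026678, chr1:169655501-169695813, plus strand), an RGS gene of vascular mural cells and other smooth muscle, had TPM values of 82.4, 95.1 and 82.6 for the Ctrl colons, against 62.5, 48.0 and 41.4 for the Y/T KO colons. The 3 Ctrl bladders held 237, 214 and 237 TPM, against 239, 264 and 224 for the Y/T KO bladders. The colon genotypes were apart and the bladder genotypes overlapped. The log2 difference was -0.76 in colon (SE 0.17, 95% interval -1.14 to -0.37, limma adjusted p = 0.241) and 0.08 in bladder (SE 0.11, -0.18 to 0.33).

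The difference between the tissues in the effect of genotype on *Rgs5* was -0.86 (SE 0.21, 95% interval -1.31 to -0.40), which did not pass over all genes tested (limma adjusted p = 0.203). Of the 10 genes, 0 passed this interaction test, where 0.0552% of 16298 genes tested did, and 2 (*Rgs5* and *Gnaq*) had an unadjusted p under 0.05 against 12.7% of genes tested. With the 12 libraries of both tissues in a single fit, *Rgs5* in colon passed (log2 difference -0.78, limma adjusted p = 0.0492). In the fit of the 6 colon libraries, its limma adjusted p was 0.343 without the trend and robust variance options. It was 0.598 without the Y/T KO colon of mouse 780. The summed TPM of 6 pericyte markers was between 51.3 and 62.6 in Ctrl colon and between 66.7 and 72.2 in Y/T KO colon. Of these markers, *Kcnj8* and *Cspg4* had positive log2 differences in colon (0.76 and 1.08) and the other 4 negative ones (*Notch3* -0.89, *Abcc9* -0.14, *Pdgfrb* -0.10 and *Higd1b* -0.02), none past the adjusted limma threshold, and their part in the *Rgs5* value was not tested. Relative to *Myh11* the *Rgs5* ranges of the genotypes overlapped in colon (log2 difference 0.23, SE 0.20). They also overlapped relative to *Des*, with the opposite sign (-0.50, SE 0.36), so the direction depended on the marker. In bladder the values were 0.43 relative to *Myh11* (SE 0.25, overlap) and 1.1 relative to *Des* (SE 0.29, no overlap).

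Tissue, in contrast to genotype, separated most of the set. In Ctrl mice 7 of the 10 genes differed between colon and bladder, 1 higher and 6 lower in colon, where 51.4% of 19439 genes tested did (25.6% higher and 25.9% lower). In Y/T KO mice 6 of the 10 differed, 1 higher and 5 lower, where 52.4% of genes tested did (26.3% higher and 26.1% lower). For 10 genes, both counts are near the background.

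*Chrm3* in Ctrl colon was 0.146 of its level in Ctrl bladder (95% interval 0.0886 to 0.240, log2 difference -2.78, SE 0.33, limma adjusted p = 2.86e-05). *Rgs2* was lower in Ctrl colon by a log2 difference of -2.66 (SE 0.45, limma adjusted p = 0.00057), *Plcb4* by -2.18 (SE 0.37, limma adjusted p = 0.000533) and *Rgs5* by -1.14 (SE 0.15, limma adjusted p = 5.14e-05). *Gna11* was the only called gene that was higher in colon, by 1.17 (SE 0.14, limma adjusted p = 2.66e-05). In Y/T KO mice the same 5 genes passed, with log2 differences of -2.90 for *Chrm3*, -3.45 for *Rgs2*, -2.44 for *Plcb4*, -2.0 for *Rgs5* and 1.29 for *Gna11*.

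*Gnaq* (-0.29, limma adjusted p = 0.0494) and *Gnai2* (-0.42, limma adjusted p = 0.0413) passed narrowly in Ctrl mice, and each call was lost under several other settings. In Y/T KO mice *Gnaq* passed (-0.64, limma adjusted p = 0.000522) and *Gnai2* did not (-0.16, limma adjusted p = 0.411). *Chrm2* was higher in Ctrl colon by 1.03 (SE 0.44, 95% interval 0.06 to 2.0, limma adjusted p = 0.0713), and by 1.59 without the Ctrl bladder of mouse 785 (limma adjusted p = 0.0035). Without the Ctrl bladder of mouse 788 the limma adjusted p was 0.249. *Rgs4* (-0.17, 95% interval -0.66 to 0.33) and *Plcb1* (-0.31, -0.79 to 0.17) did not pass in Ctrl mice. All 9 smooth muscle markers were also lower in colon than in bladder, by a median log2 difference of -2.08 in Ctrl mice, and their part in the differences of the set was not tested.

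**Figure D5:**
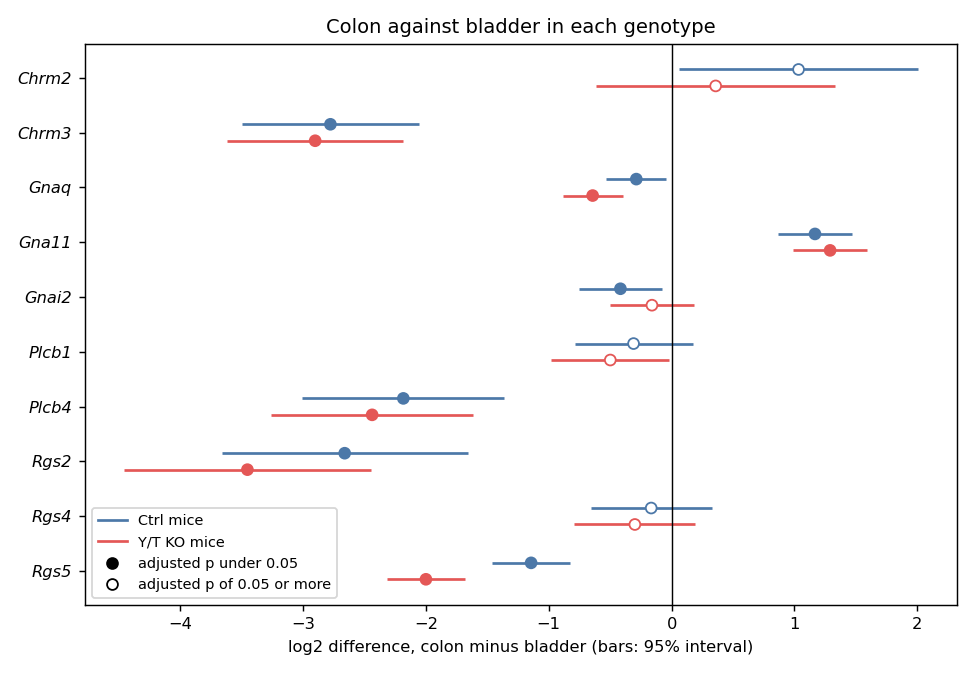
Log2 difference of colon minus bladder for the 10 genes in Ctrl mice (blue) and Y/T KO mice (red), as fitted by limma, with bars for the 95% interval and filled points at an adjusted p under 0.05. *Chrm3*, *Plcb4*, *Rgs2* and *Rgs5* lie far to the left (higher in bladder) and *Gna11* to the right (higher in colon) in both genotypes.

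By mean TPM, the order of the groups for *Chrm2* was Ctrl colon, Ctrl bladder, Y/T KO colon and Y/T KO bladder, where neither Ctrl colon and Ctrl bladder nor the Y/T KO groups were apart. For *Chrm3* it was Ctrl bladder, Y/T KO bladder, Ctrl colon and Y/T KO colon, with no overlap between any neighbours. For *Rgs2* it was Y/T KO bladder, Ctrl bladder, Y/T KO colon and Ctrl colon, also with no overlap between neighbours. In each of these orders the scale is TPM, a level per length.

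The other genes of the pathway were read from lists that included receptors, G-protein subunits, phospholipase C targets, RGS proteins, adenylyl cyclases, receptor kinases with arrestins, and acetylcholine handling. They numbered 87 besides the 10, of which 78 were tested in colon and 79 in bladder. With genotype, 0 of them passed the adjusted threshold in either tissue. At an unadjusted p under 0.05 there were 2 higher and 7 lower in colon, where 5.14% of all genes tested were higher and 4.59% lower, and 1 higher and 8 lower in bladder, where 6.64% were higher and 8.2% lower. Their median log2 difference was -0.11 in colon and -0.07 in bladder.

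Of the remaining muscarinic receptors, *Chrm1* had a mean TPM of 3.175 in Ctrl colon and 3.597 in Y/T KO colon (SD 1.56 and 1.57, n = 3 per group), above the means of *Chrm3* in both groups (2.5 and 0.776) and of *Chrm2* in Y/T KO colon (1.99), though of these only the *Chrm3* values in Y/T KO colon did not overlap with it. *Chrm1* ranged from 1.52 to 4.62 TPM over the Ctrl colons and from 1.79 to 4.61 TPM over the Y/T KO colons, which lay within the Ctrl range. *Chrm4* was below 1 TPM in every library, and *Chrm5* was listed at 0 in the 6 colon libraries and was below 0.2 TPM in bladder. Of the acetylcholine genes, *Chat*, the enzyme that makes acetylcholine, was at 0 to 1.10 TPM, and *Ache*, which breaks it down, had a log2 difference of -0.41 in colon (SE 0.23, limma adjusted p = 0.604) and 0.41 in bladder (SE 0.66, limma adjusted p = 0.809). The summed TPM of 7 neuron markers was between 79.9 and 100 in Ctrl colon and 57.0 and 88.1 in Y/T KO colon, and between 366 and 574 in Ctrl bladder and 513 and 640 in Y/T KO bladder.

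Between tissues of Ctrl mice, 22 of 81 pathway genes tested were higher in colon and 37 lower, 72.8% in all, against 51.4% of all genes tested (25.6% higher and 25.9% lower). In Y/T KO mice 18 were higher and 33 lower, 63% in all, against 52.4%. Gq-class and Gi-class subunits divided between the tissues. *Gna14*, a Gq-class subunit, ranged from 42.0 to 51.7 TPM over the Ctrl colons and from 2.28 to 4.62 TPM over the Ctrl bladders, a log2 difference of 4.07 (SE 0.25, limma adjusted p = 1.69e-07), while *Gna15*, also of the Gq class, was lower in colon by -2.91 (SE 0.32, limma adjusted p = 1.55e-05). *Gnai1* and *Gnao1*, of the Gi class, were lower in colon by log2 differences of -1.52 and -1.92, and *Gnai3* was higher by 0.45, all past the adjusted limma threshold.

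Further down the route, *Plcb3* was higher in Ctrl colon than in Ctrl bladder by 1.69 (SE 0.15, limma adjusted p = 3.18e-06), and *Itpr1*, the inositol trisphosphate receptor, was lower by -2.0 (SE 0.17, limma adjusted p = 1.88e-06). The cyclases divided as well, with *Adcy5* lower in colon by -2.11 and *Adcy6* higher by 1.53, both past the threshold. *Ppp1r14a*, the phosphatase inhibitor CPI-17 of calcium sensitisation, was lower in colon by -1.18, also past the threshold.

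With genotype, 0 of these genes passed the adjusted threshold. *Gna14* had a log2 difference of 0.37 in colon (SE 0.17) and -0.08 in bladder (SE 0.33), *Itpr1* of -0.22 (SE 0.20) and 0.14 (SE 0.11), and *Ppp1r14a* of -0.20 (SE 0.20) and -0.47 (SE 0.24). *Arrb1*, an arrestin that ends receptor signalling, stood at 4.97, 44.6 and 30.3 TPM in the Ctrl colons and spread as widely in the other groups, so no genotype difference could be read at this spread.

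The profile most like that of *Chrm2* over the 12 libraries was that of *Rgs1*, with a root mean square distance of 0.465 log2 units after centring each gene on its mean, where the median over 16297 genes was 1.25. It was followed by *Gm3608*, *Ldha-ps2*, *Gm44616* and *Mrpl32*, at 0.571 to 0.681. For *Chrm3* the closest included *Atp2b4*, *Dtna*, *Pgm5* and *Nkd1*, at 0.359 to 0.469 against a median of 1.69. These profiles share the libraries. *Chrm3* also had a large tissue difference, while the *Chrm2* ranges of colon and bladder overlapped in both genotypes.

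*Rgs1*, an RGS gene of immune cells that acts on Gi-class subunits, had TPM values of 12.7, 17.9 and 11.02 for the Ctrl colons, against 4.75, 1.32 and 1.81 for the Y/T KO colons. For bladder they were 2.0, 11.2 and 3.31 with Ctrl mice, against 2.25, 1.13 and 1.5 with Y/T KO mice. As with *Chrm2*, mouse 785 was the highest of the Ctrl bladders and mouse 759 the highest of the Y/T KO colons. The log2 difference was -2.50 in colon (SE 0.44, limma adjusted p = 0.133) and -1.38 in bladder (SE 0.62, limma adjusted p = 0.365).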

How the data were processed

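Poly(A) RNA of colon and bladder homogenates was sequenced from a stranded library kit. The authors aligned reads with HISAT2 to GRCm38 and estimated levels with StringTie, per the submitters' processing notes, and versions and the strand setting of StringTie are not given in the sources used here. The deposited tables give TPM, FPKM and coverage per gene, and 98.327% of 54409 identifiers had the start and end of GENCODE M21. No read counts were used, so limma 3.58.1 (R 4.3.3) replaced the DESeq2 test of the authors. TPM was summed per gene, divided by median-of-ratios size factors and fitted as log2(TPM + 0.1) with trend and robust variance, so differences of low genes are understated. Genes needed at least 0.5 TPM in 3 libraries of a tissue. Calls used a Benjamini-Hochberg adjusted p under 0.05 over all genes tested. Genotype fits used the 6 libraries of a tissue, and tissue and interaction fits used all 12. P-values of the genotype comparisons measure the spread between mice. Those across tissues measure the spread between libraries, since some mice gave both tissues and the main fit held no block for the mouse. Single ratios were tested by exact permutation. The fit was tested on simulated data. The 10 genes and all lists were chosen with earlier results of these data known. Besides the 10 genes, 26 pathway genes, any called pathway gene and the 5 genes nearest in profile to each receptor were to be named, and *Rgs1* met 2 of these rules. Some named genes and 1 pathway list are not reported here. Promoter windows came from RefSeq. Deviations of the same mouse in both tissues correlated by -0.02 (788), 0.09 (783) and 0.06 (780). Alternatives were the pseudocount, the filter, the scaling, the variance options, the libraries fitted, a block for the mouse and each library left out in turn.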

Additional observations from a re-analysis of the deposited data

How the results depend on the processing

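The number of the 10 genes called with genotype stayed at 0 in bladder and for the interaction under all settings tried, and in colon under a pseudocount of 1 TPM, no filter on low values, TPM as deposited and no trend or robust options. It became 1 in colon with all 12 libraries in a single fit, with or without the replicate block for the mouse (*Rgs5*, adjusted p = 0.0493 with the block by limma), and was 0 to 1 on leaving out single libraries (*Chrm2* without Y/T KO mouse 759). Over all genes, 24 were called in colon, 6 without the filter, 75 with all 12 libraries and no block, 74 with the replicate block, and 5 to 63 on leaving out single libraries, so each colon library moved this count by over 1.5 times, to 13 without Ctrl mouse 788, 5 without 786, 9 without 787, 63 without Y/T KO mouse 759, and 5 without 783 or 780. In bladder 55 were called, and 11 to 51 on leaving out single libraries, with 11 without Ctrl mouse 785 or 788, 29 without 784, and 19 and 25 without Y/T KO mice 783 and 780. The interaction had 9 calls, and 5 to 26 on leaving out single libraries, with 26 without the Y/T KO colon of mouse 759, 15 without the Y/T KO bladder of 782 and 5 without the Ctrl bladder of 785.

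The balance of *Chrm2* to *Chrm3* ranged from -1.34 to -0.36 in colon and from -0.66 to 0.31 in bladder on leaving out single libraries, and was reversed only without Ctrl mouse 785 (0.31). Among the tissue calls, 5 to 7 of the 10 genes passed in Ctrl mice and 6 to 9 in Y/T KO mice. With the mouse as a replicate block these counts were 7 and 6. *Gnaq* in Ctrl mice had adjusted limma p values up to 0.165 and *Gnai2* up to 0.142. For *Gnai2*, *Plcb1* and *Rgs4* in Y/T KO mice the tissue difference passed with the TPM as deposited, at -0.44, -0.77 and -0.57. This setting leaves out the size factors, which moves each colon minus bladder difference down. Over the 12 libraries these factors were 0.912 to 0.918 for the Y/T KO colons and 1.06 to 1.14 for the Y/T KO bladders.

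Differences near 0 changed sign. In colon *Plcb1* was -0.017 with TPM as deposited, -0.00414 with all 12 libraries and no block, and -0.00715 with the replicate block. On leaving out single libraries, the colon differences ranged from -0.112 to 0.192 for *Plcb1* (negative without mouse 788, 787 or 759), from -0.184 to 0.103 for *Gnai2* (positive without the same mice), from -0.109 to 0.127 for *Gna11* (negative without 786 or 783) and from -0.181 to 0.261 for *Plcb4* (negative without 786 or 759). In bladder they ranged from -0.115 to 0.606 for *Plcb4* and from -0.0146 to 0.136 for *Rgs5*, both negative without mouse 783. Between tissues, *Rgs4* in Ctrl mice ranged from -0.344 to 0.107 (positive without the bladder of 785) and *Chrm2* in Y/T KO mice from -0.0371 to 0.571 (negative without 759). The interaction of *Chrm3* was 0.327 with a pseudocount of 1 TPM, and on leaving out single libraries it ranged from -0.389 to 0.201, that of *Gna11* from -0.0308 to 0.201, that of *Plcb4* from -0.559 to 0.172 and that of *Rgs4* from -0.41 to 0.0436. With 3 mice per group, only differences well above the spread between mice could pass over all genes.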

Other observations

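The locus of *Chrm2* also holds a gene annotated on the opposite strand. *9330158H04Rik* (chr6:36209620-36390191, minus strand in GENCODE M21) runs away from *Chrm2*, overlaps its first exons by 142 exonic bases and covers the upstream stretch of *Chrm2* printed above. It was chosen after its values were seen, among the 19 annotated genes that overlap the 10. Its TPM values were 14.4, 13.6 and 13.1 for the Ctrl colons, against 1.34, 0.122 and 0.353 for the Y/T KO colons. The Ctrl bladders held 0.617, 2.89 and 3.25 TPM, against 0.140 and 0.0623 for the Y/T KO bladders of mice 783 and 780, and the gene was listed at 0 in that of mouse 782. Every Y/T KO library was below every Ctrl library of its tissue. The log2 difference was -4.68 in colon (SE 0.61, limma adjusted p = 0.0569) and -3.60 in bladder (SE 0.72, limma adjusted p = 0.132), neither past the threshold. It was higher in Ctrl colon than in Ctrl bladder by 3.09 (SE 0.70, limma adjusted p = 0.00319). Whether reads were counted by strand is not stated, so reads in the shared exonic bases may have been given to either gene. *Mir490*, which lies within *Chrm2* on its strand, was listed at 0 in all 12 libraries.

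Of the 19 overlapping genes, 8 were listed at 0 in all 12 libraries and 5 reached 0.5 TPM in any. *Gm10819*, within *Gnaq* on the opposite strand and sharing no exonic bases with it, ranged from 13.9 to 17.2 TPM over the Ctrl colons and from 30.4 to 35.5 TPM over the Ctrl bladders. *Gm14036*, within *Plcb1* on its strand, ranged from 1.91 to 2.38 TPM over the Ctrl bladders and from 0.206 to 0.771 TPM over the Y/T KO bladders, with no overlap, while the colon ranges, 1.66 to 3.40 and 1.02 to 3.64 TPM, overlapped.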
